A study of Sus scrofa with 16 samples.

Results

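The histone deacetylases described here are 9 genes of the zinc-dependent family that lie on autosomes: HDAC1, HDAC2 and HDAC3 (class I), HDAC4, HDAC5, HDAC7 and HDAC9 (class IIa), HDAC10 (class IIb) and HDAC11 (class IV). They were chosen by name from the 29552 named gene rows of the count table, and 9 of the 9 passed the filter on low counts. The samples were 16 mRNA libraries of valvular interstitial cells, which are the resident fibroblasts of the aortic valve leaflet, from pigs aged 5 to 6 months. For 48 hours the cells grew with 1% serum on a soft PEG-norbornene hydrogel (stiffness 5.8 kPa) or on rigid culture plastic. The labels call the cells on gel fibroblasts, held to be quiescent, and those on plastic myofibroblasts. Each sex had 4 libraries per surface, numbered 1 to 4, and the labels name no genetic change or added agent in any group. They do not say whether a number marks 1 animal or a pool, so p-values measure the spread between these samples.

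Histone deacetylases remove acetyl groups from lysines of histone tails and of other proteins, which tends to close chromatin and lower transcription. Class I enzymes sit in large nuclear repressor complexes (SIN3, NuRD, CoREST and NCOR1). Class IIa proteins have little enzyme activity of their own, bind MEF2 transcription factors and shuttle between nucleus and cytoplasm, where kinases and 14-3-3 proteins hold them. In fibroblasts of many organs, inhibitors of this family are known to dampen the myofibroblast state.

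The main question was how each gene differed between plastic and gel in each sex. HDAC9 rose on plastic in both sexes, 3.85-fold in male and 4.91-fold in female cells. HDAC2 fell on plastic in male cells, to 0.668 of its level on gel. The other 7 genes were not called in either sex by the quasi-likelihood test of edgeR (Benjamini-Hochberg adjusted p under 0.05 over 14530 tested genes). Thus 2 of the 9 members were called in male cells, against 25.8% of all tested genes, and 1 of 9 in female cells, against 23.9%. Rises were called for 12.9% of all genes in male and 12.7% in female cells, and falls for 12.9% and 11.3%. The median log2 change of the members was 0.15 in male and -0.12 in female cells, beside -0.03 and -0.04 over all tested genes.

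**Figure D1:**
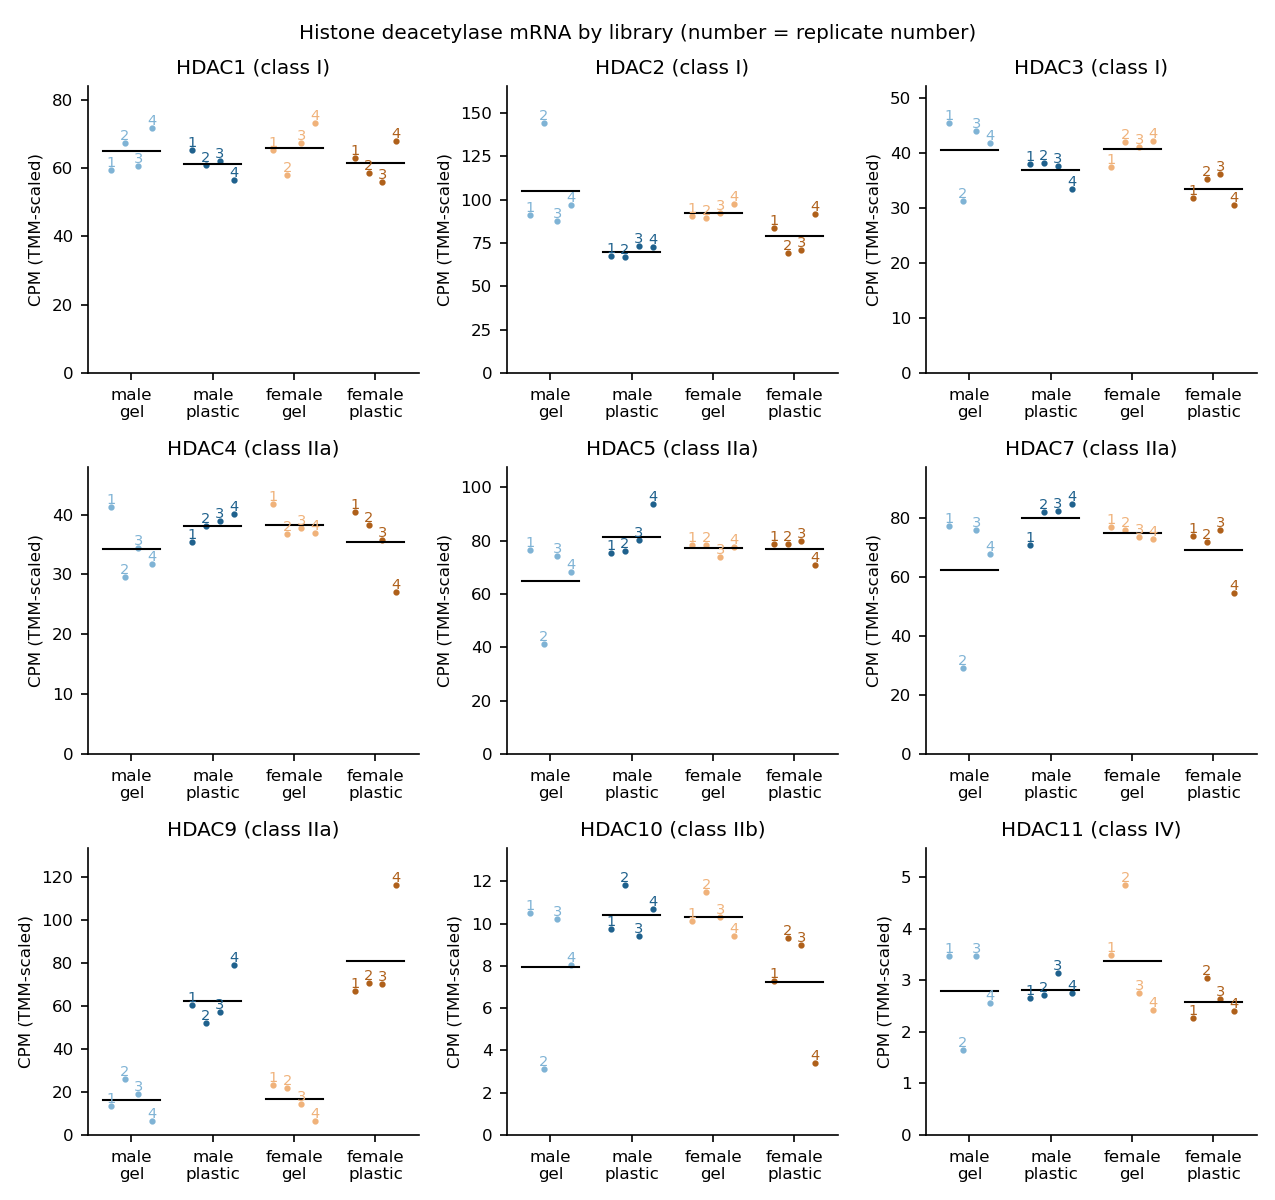
Level of each histone deacetylase in every library, in CPM (reads of a gene per 1e+06 reads of the library, scaled by TMM) on axes that start at 0, with a panel per gene. Points are libraries marked by their replicate number, and bars are group means (n = 4). HDAC9 on plastic lay between 52.0 and 116 CPM, above all gel libraries (6.38 to 25.9 CPM), while male gel 2 and female plastic 4 stood apart for HDAC7 and HDAC10.

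Total counts ran from 16928784 to 27481373 per library, lowest in male gel 2, which also had the fewest genes with a read (15476, against 16850 to 18453 elsewhere). Markers of the labelled cell type were abundant: 8 interstitial and fibroblast genes together made 38700 to 54500 CPM in a library, mostly from collagens and VIM. Of these 8, 2 rose and 3 fell on plastic in male cells and 1 rose and 3 fell in female cells; those that fell in both sexes were PDGFRA (-2.44 and -2.38), DCN (-1.33 and -1.41) and LUM (-1.62 and -1.42). The myofibroblast marker ACTA2 rose from a mean of 3992 to 19950 CPM in male and from 4024 to 18200 CPM in female cells, with no overlap. Of 10 leukocyte markers in the table, CD3E was at 0 in all libraries, PTPRC never exceeded 1 count, and of 4 tested 1 rose and 1 fell in each sex. Of 10 cardiac and skeletal muscle markers, TNNT2, NPPA, MYL7, MYOD1, MYOG and TNNC1 were at 0 throughout, and 2 of 3 tested rose in each sex, ACTC1 and RYR2. None of the 18 endothelial markers was at 0 in all libraries, and CDH5 (VE-cadherin) ranged from 4.97 to 174 CPM. Of the 18, 3 rose on plastic in male and 4 in female cells, and 0 fell. With the replicate number as a block, 8 and 6 rose. The share of all genes called in the block fit is not given here, so nothing is read from that difference. In bulk RNA, fewer cells of a type and less RNA per cell cannot be told apart. Counts are not divided by transcript length here, so levels are compared between libraries and not between genes.

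Male gel 2 stood apart for most members, and female plastic 4 in part in the same way. In male gel 2, HDAC10 lay 1.70 log2 units below the median of the other male gel libraries, HDAC7 lay 1.38 below, HDAC11 lay 1.044 below and HDAC5 lay 0.85 below. HDAC2 was 0.66 above and HDAC9 0.95 above in that library. In female plastic 4, HDAC10 lay 1.37 and HDAC7 0.43 log2 units below the other female plastic libraries, whereas HDAC9 was 0.72 and HDAC2 0.38 above them. Over all tested genes, male gel 2 also had the lowest median correlation with its own group (0.954, against 0.9735 to 0.9751 for the other male gel libraries). Female plastic 4 was ordinary in this respect (0.971, in a group of 0.9688 to 0.9746) and in depth, and was singled out by the levels of the members themselves. Values without both libraries are therefore descriptions that depend on those levels and support no call; the choice was made after the data were seen. The map of deviations by library shows the same libraries at a glance.

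**Figure D2:**
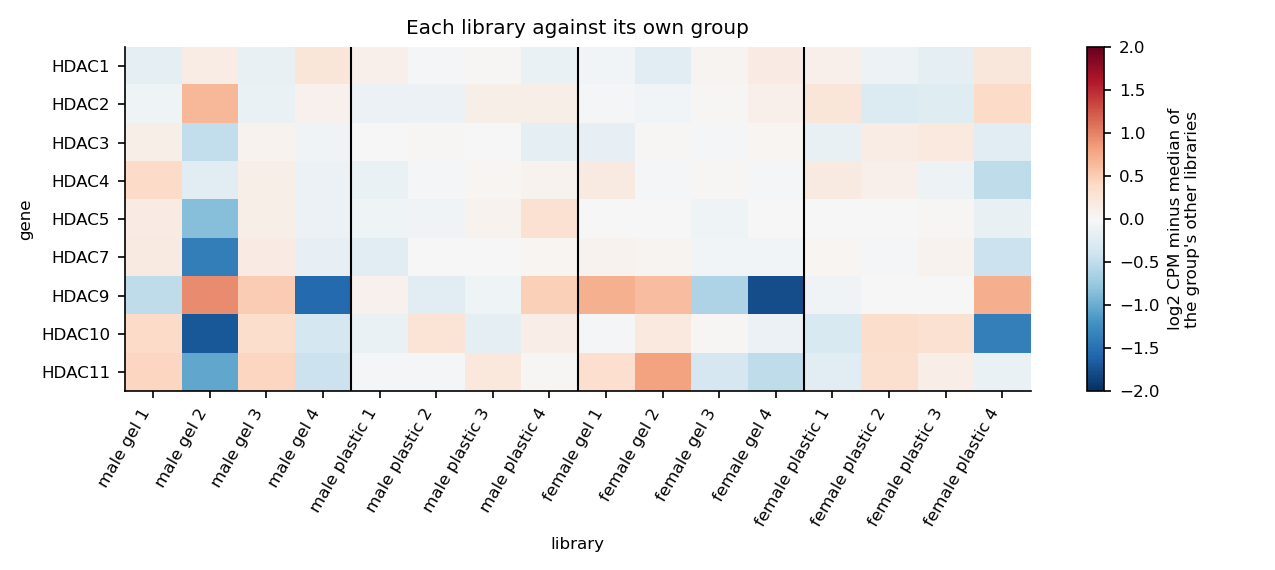
Log2 CPM of each gene in each library minus the median of the other 3 libraries of its group; red is higher and blue lower, and black lines part the groups. Male gel 2 is the column with the deepest falls for HDAC10 (-1.70) and HDAC7 (-1.38), and HDAC9 was lowest in male gel 4 (-1.55) and female gel 4 (-1.78).

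HDAC9 (chromosome 9, 87164400 to 88192803 on Sscrofa11.1) is a class IIa member best known as a brake on MEF2 in skeletal and heart muscle. In male gel libraries 1 to 4 it stood at 13.4, 25.9, 19.1 and 6.46 CPM, and in male plastic at 60.6, 52.0, 57.0 and 79.0 CPM. In female gel libraries 1 to 4 it stood at 23.4, 22.0, 14.3 and 6.38 CPM, and in female plastic at 67.0, 70.7, 70.4 and 116 CPM. Every plastic library lay above every gel library, and the lowest of plastic, 52.0 CPM in male plastic 2, was above the highest of gel, 25.9 CPM in male gel 2. CPM did not overlap between plastic and gel for 28.9% of all tested genes in male and 27.7% in female cells. The log2 change was 1.94 in male (SE 0.38, adjusted p = 0.00134) and 2.30 in female cells (SE 0.39, adjusted p = 0.000377; edgeR). It rose in both sexes as did 9.24% of all tested genes (1342). The call held in both sexes when any 1 library was left out, with log2 changes of 1.68 to 2.25 in male and 2.03 to 2.51 in female cells.

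The size of the HDAC9 rise varied between cultures. The labels do not say what a shared number marks, so a culture here means only the libraries that share a sex and a replicate number. Paired in this way, plastic exceeded gel in 8 of 8 cultures, by 1.00 (male 2) to 4.17 (female 4) on the log2 scale. The share of all genes with such a count was not computed. The cultures numbered 4 had the lowest HDAC9 on gel in both sexes, 6.46 and 6.38 CPM against 13.4 to 25.9 CPM in the other 6 gel libraries. They also had the highest HDAC9 on plastic, 79.0 and 116 CPM against 52.0 to 70.7 CPM in the other 6. Their differences between plastic and gel were 3.60 in male and 4.17 in female cells, against 1.00 to 2.29 in the other 6 cultures. Without both cultures, a setting added after these HDAC9 levels were seen, the rise was 1.55 (SE 0.22) in male and 1.80 (SE 0.22) in female cells. Since these cultures held the extremes of HDAC9, leaving them out by itself lowers the rise and narrows the spread. These values support no call. Endothelial markers moved in part with these cultures: their summed level was 471 CPM in male gel 4 and 490 CPM in female gel 4, against 315 to 336 CPM in the other male and 334 to 462 CPM in the other female gel libraries. By group it ranged from 315 to 471 CPM in male gel, 349 to 538 in male plastic, 334 to 490 in female gel and 358 to 856 in female plastic. ERG and ENG had the highest group means of the list, so the sum rests largely on them. They were at 92.8 and 106 CPM or more in every library, whereas VWF, KDR and CLDN5 never exceeded 4.17, 2.22 and 2.53 CPM. On plastic, male 4 had the highest sum of its group (538 CPM) and female 4 the second highest. The highest, 856 CPM, was in female plastic 1, where HDAC9 stood at 67.0 CPM, the lowest of its group. Summed myofibroblast markers were lowest of their groups in male gel 4 (3830 CPM) and female gel 4 (3550 CPM), as was HDAC9. On plastic, where HDAC9 was highest in male 4 and female 4, their order differed. There male 4 had the lowest myofibroblast sum of its group (21900 CPM) and female 4 the second lowest (20500 CPM). The part of endothelial cells or of the myofibroblast state in the HDAC9 levels was not tested.

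**Figure D3:**
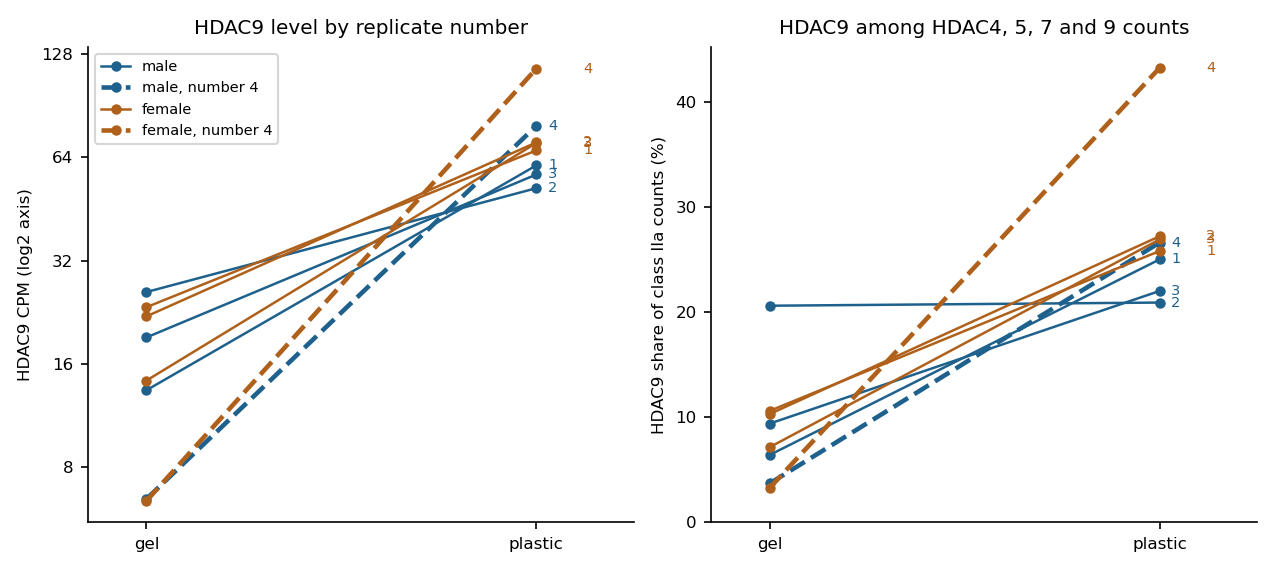
HDAC9 on gel and on plastic in the 8 cultures, with a line joining libraries of the same sex and replicate number; left, CPM on a log2 axis, and right, HDAC9 as a percent of the counts of HDAC4, HDAC5, HDAC7 and HDAC9. Dashed lines join the libraries numbered 4, which were lowest on gel (6.46 and 6.38 CPM) and highest on plastic (79.0 and 116 CPM). The labels do not say what a shared number marks.

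Within class IIa, HDAC9 thereby took a larger part of the counts on plastic. Its share of the reads of HDAC4, HDAC5, HDAC7 and HDAC9 was 10% ± 7.41 (SD, n = 4) in male gel and 23.6% ± 2.62 in male plastic. In female cells the share was 7.84% ± 3.42 on gel and 30.8% ± 8.31 on plastic. Shares did not overlap in either sex, but the margin in male cells was small: the highest gel share, 20.6% in male gel 2, lay just under the lowest plastic share of 20.9%. Since the 4 genes differ in length, these are shares of reads and not of molecules.

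The nearest tested gene on each side of HDAC9 was not called higher in either sex. TWIST1, a mesenchymal transcription factor whose gene lies 94107 bases from HDAC9 at higher coordinates, had log2 changes of 0.07 in male (SE 0.14, adjusted p = 0.769) and 0.07 in female cells (SE 0.14, adjusted p = 0.762). SNX13, a sorting nexin 77199 bases away on the other side, fell by 0.41 in male cells (SE 0.14, adjusted p = 0.0409) and was at -0.02 in female cells (adjusted p = 0.921). The male SNX13 call was lost without any 1 of 8 libraries, and without male gel 2 the value was -0.21 (adjusted p = 0.12). The 3 annotated loci that overlap HDAC9 held 2, 9 and 23 counts over all libraries, so few reads were assigned to them. Reads left unassigned because they fell on HDAC9 and on such a locus would not show in these counts. Both nearest tested genes of HDAC2 were called lower on plastic in both sexes. They were MARCKS, 71817 bases away (-0.941 in male and -0.441 in female cells), and FRK, 1705001 bases away (-2.498 and -2.145). A link with the HDAC2 levels was not tested, and neighbours of the remaining members are not given here. All neighbours were looked up after the values of the members were known.

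HDAC4, HDAC5 and HDAC7, the other class IIa members, were not called in either sex. HDAC4 (chromosome 15, 138378237 to 138657266), which controls growth plate cartilage and responds to nerve input in muscle, had group means of 34.3 to 38.3 CPM. Its log2 change was 0.15 in male (SE 0.12) and -0.11 in female cells (SE 0.12), with overlap between surfaces. Without male gel 2 the male value was 0.09, and without female plastic 4 the female value was 0.00. HDAC5 (chromosome 12, 19077910 to 19119463), a signal-responsive repressor of heart muscle growth, was at 76.5, 41.1, 74.1 and 68.4 CPM in male gel and at 75.4, 76.2, 80.4 and 93.6 CPM in male plastic. It changed by 0.32 in male (SE 0.14, adjusted p = 0.113) and by 0.00 in female cells (SE 0.14), and the male value was 0.16 without male gel 2 and female plastic 4. HDAC7 (chromosome 5, 78150554 to 78186051), known for its role in endothelial and thymic cells, was at 77.4, 29.1, 75.9 and 67.9 CPM in male gel and at 70.8, 82.3, 82.6 and 84.7 CPM in male plastic. In female gel it was at 77.2, 76.1, 73.7 and 73.1 CPM and in female plastic at 74.0, 72.1, 76.1 and 54.8 CPM. The spread of HDAC7 thus came mostly from male gel 2 and female plastic 4. With them its log2 change was 0.35 (SE 0.21) in male and -0.12 (SE 0.21) in female cells, and without them 0.12 (SE 0.07) and -0.02 (SE 0.07). The HDAC7 locus overlaps SLC48A1, a heme transporter with 9733 counts over all libraries, only in a short stretch at its lower end. HDAC7 starts at 78150554 and SLC48A1 ends at 78150584. Reads of that stretch cannot be assigned here.

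Among class I enzymes, HDAC2 (chromosome 1, 79867713 to 79901597) is a catalytic subunit of the SIN3, NuRD and CoREST complexes. Paired by sex and replicate number, it was lower on plastic in 8 of 8 pairs, by log2 differences of -1.108 to -0.083. The labels do not say what a shared number marks, and the share of all genes with such a count was not computed. HDAC2 stood at 91.3, 144, 87.9 and 96.7 CPM in male gel and at 67.5, 66.8, 73.1 and 72.9 CPM in male plastic, with no overlap. In female gel it stood at 90.7, 89.3, 92.5 and 97.5 CPM and in female plastic at 83.6, 69.0, 70.7 and 92.0 CPM, so that female plastic 4 reached into the gel range. The male log2 change was -0.58 (SE 0.14, adjusted p = 0.00495) and the female -0.23 (SE 0.14, adjusted p = 0.245). Male gel 2 was the highest of its group by far, and without it the male change was -0.39 (SE 0.09, adjusted p = 0.00598). The female value in that fit was -0.23 (SE 0.09, adjusted p = 0.0559). With female plastic 4 left out too, the values were -0.39 (SE 0.07) in male and -0.31 (SE 0.07) in female cells; since that library held the highest HDAC2 on plastic, its removal by itself moves the female value down.

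HDAC3 (chromosome 2, 143273188 to 143287421), the catalytic subunit of the NCOR1 complex, was at 45.3, 31.2, 44.0 and 41.7 CPM in male gel and at 37.9, 38.2, 37.6 and 33.4 CPM in male plastic. In female gel it was at 37.4, 41.9, 41.1 and 42.1 CPM and in female plastic at 31.7, 35.2, 36.2 and 30.5 CPM, with no overlap between the female groups. The log2 change was -0.14 in male (SE 0.11, adjusted p = 0.362) and -0.28 in female cells (SE 0.11, adjusted p = 0.0733), so neither was called. Leaving out male gel 2 turned both into calls, at -0.25 (adjusted p = 0.0381) and -0.28 (adjusted p = 0.0114). Since that library held the lowest HDAC3 on gel (31.2 CPM), its removal by itself moves the male value down. The female value did not move, and all groups share an estimate of the spread. Without both male gel 2 and female plastic 4 the values were -0.25 in male (SE 0.07) and -0.24 in female cells (SE 0.07). In that fit 3 of 9 members passed the threshold in each sex, 1 higher and 2 lower, against 28.6% of 14655 tested genes in male (14.6% higher, 14% lower) and 29.3% in female cells (14.8% higher, 14.5% lower), and nothing is read from these counts. Of the 3 class I genes, HDAC1 (chromosome 6, 88749611 to 88785220), the close paralog and partner of HDAC2, was not called either way. It ranged from 57.8 to 73.0 CPM on gel and from 55.8 to 68.0 CPM on plastic, with log2 changes of -0.08 (SE 0.09) in male and -0.10 (SE 0.09) in female cells. Its 95% interval was -0.29 to 0.12 in male and -0.30 to 0.10 in female cells. Its share of the summed HDAC1 and HDAC2 reads was 38.7% ± 4.72 (SD, n = 4) in male gel and 46.6% ± 2.37 in male plastic, and 41.5% ± 1.53 and 43.9% ± 1.49 in the female groups.

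**Figure D4:**
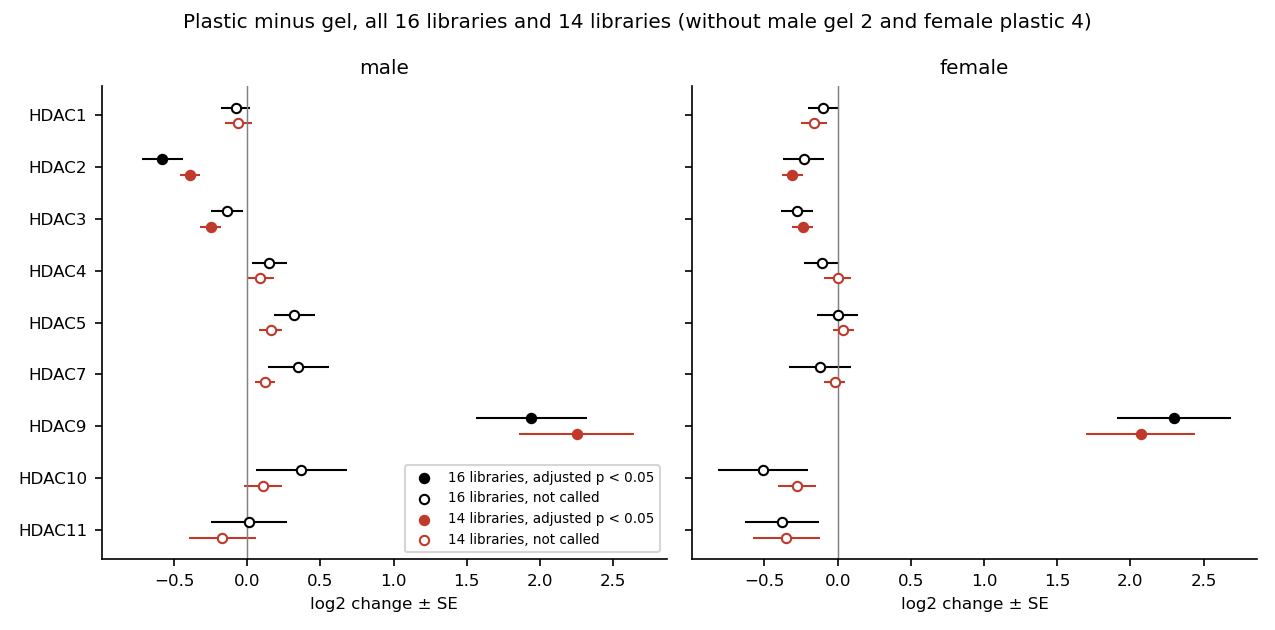
Log2 change of each gene between plastic and gel, with its standard error, in male (left) and female cells (right); black, all 16 libraries, and red, without male gel 2 and female plastic 4. Filled points have an adjusted p under 0.05 (edgeR); HDAC9 is far to the right at 1.94 and 2.30, and HDAC2 and HDAC3 are filled in both sexes in the smaller set, from which a library was left out for the levels of these genes themselves.

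HDAC10 (chromosome 5, 439142 to 445337), a cytoplasmic class IIb enzyme that acts on acetylated polyamines, was the least even of the remaining genes. It was at 10.5, 3.11, 10.2 and 8.03 CPM in male gel and at 9.72, 11.8, 9.41 and 10.7 CPM in male plastic. In female gel it was at 10.1, 11.5, 10.3 and 9.42 CPM and in female plastic at 7.28, 9.31, 8.97 and 3.42 CPM. The log2 change was 0.37 in male (SE 0.31, adjusted p = 0.405) and -0.51 in female cells (SE 0.31, adjusted p = 0.255). Without male gel 2 and female plastic 4 these values shrank to 0.11 (SE 0.13) and -0.28 (SE 0.13), and neither was called. Female gel and plastic did not overlap for HDAC10, since the highest plastic library (9.31 CPM) lay just under the lowest gel library (9.42 CPM). HDAC11 (chromosome 13, 70860650 to 70879863), the only class IV member and an enzyme that removes fatty acyl groups, had the lowest counts of the 9 genes, 29 to 123 reads per library. It ranged from 1.64 to 4.84 CPM on gel and from 2.26 to 3.15 CPM on plastic, with log2 changes of 0.01 (SE 0.26) in male and -0.38 (SE 0.25) in female cells. Without male gel 2 the male value was -0.17, and without female gel 2 the female value was -0.16. The 95% interval of the male change, -0.53 to 0.55, leaves room for a sizeable difference either way. The X-linked HDAC6 and HDAC8, which are not among the 9, were called in neither sex (0.11 and -0.10 in male, -0.02 and -0.11 in female cells).

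The next question was whether the sexes differed. By edgeR 0 of the 9 genes differed between female and male cells on gel (0.103% of all tested genes did: 0.00688% higher and 0.0964% lower in female cells) and 0 of 9 on plastic (0.124% did: 0.0275% higher and 0.0964% lower), and 0 had an unadjusted p under 0.05 on either surface. DESeq2 and limma-voom called 0 members as well. On gel, the log2 difference of female minus male HDAC9 was 0.03 (95% interval -0.77 to 0.83), and on plastic it was 0.38 (-0.39 to 1.16). HDAC1 had the narrowest intervals, -0.18 to 0.22 on gel and -0.20 to 0.21 on plastic. HDAC10 on plastic was the 1 case without overlap, at -0.52 (SE 0.31, adjusted p = 0.98), where 2.85% of all tested genes had no overlap. That difference was -0.29 without male gel 2 and female plastic 4.

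The test of whether the surface change itself differed between the sexes called 0 of 14530 genes (0%) by edgeR, with 633 at an unadjusted p under 0.05, and 0 by DESeq2 and by limma-voom, with 857 and 502. For HDAC9 the female change exceeded the male by 0.35 (95% interval -0.76 to 1.46, adjusted p = 0.855). For HDAC2, called in male cells only, the difference of changes was 0.35 (-0.06 to 0.76, adjusted p = 0.767), so a sex difference in its fall was not shown. That difference was 0.16 without male gel 2 and 0.08 without both it and female plastic 4. HDAC10 had the largest difference, -0.88 (-1.81 to 0.04, adjusted p = 0.767 by edgeR). It was -1.05 by limma-voom (adjusted p = 0.759), and -0.39 (adjusted p = 1) when male gel 2 and female plastic 4 were left out.

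Genes that work with these enzymes were read from lists. Over all tested genes, rises were called for 12.9% in male and 12.7% in female cells, and falls for 12.9% and 11.3%. Among 4 MEF2 factors, the DNA-binding partners that class IIa proteins repress, 2 rose in male and 2 in female cells and 0 fell. MEF2D was at 73.7, 51.6, 67.3 and 74.9 CPM in male gel and at 126 to 147 CPM in male plastic, a log2 change of 1.01 (SE 0.10, adjusted p = 4.02e-06). In female cells it rose by 0.81 (SE 0.10, adjusted p = 3.17e-05). MEF2C rose from 4.53 to 14.5 CPM in male gel to 20.8 to 28.0 CPM in male plastic (1.16, SE 0.34, adjusted p = 0.0198; 0.0537 without male plastic 3). In female cells it rose from 3.95 to 12.6 CPM on gel to 14.4 to 28.6 CPM (1.39, SE 0.34, adjusted p = 0.00728). On gel MEF2C, like HDAC9, was lowest in the cultures numbered 4 in both sexes (4.53 and 3.95 CPM). This was not particular to MEF2C. The myofibroblast markers ACTA2 (2500 and 2270 CPM), TAGLN (1230 and 1190 CPM) and CNN1 (103 and 89.1 CPM) were lowest there too. MEF2D was not, as male gel 4 had the highest level of its group (74.9 CPM). MEF2A was not called, at 0.02 in male and 0.21 in female cells.

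Of 21 tested kinases and 14-3-3 proteins that act on class IIa deacetylases (22 in the list), 9 rose and 1 fell in male cells, and 9 rose and 2 fell in female cells. The median log2 change was 0.20 in male and 0.21 in female cells, beside -0.03 and -0.04 for all tested genes. YWHAH, the eta form of 14-3-3, went from a mean of 78.3 to 229 CPM in male (1.55, SE 0.10, adjusted p = 3.98e-08) and from 74.6 to 221 CPM in female cells (1.56, SE 0.10, adjusted p = 3.96e-08). The calcium-dependent kinases CAMK2G and CAMK2D rose by 0.77 (SE 0.12) and 0.64 (SE 0.11) in male and by 0.66 (SE 0.12) and 0.67 (SE 0.11) in female cells. The genes that fell, named after their values were seen, were the salt-inducible kinases SIK3 (-0.92, SE 0.21, adjusted p = 0.00425 in male; -0.99, SE 0.21, adjusted p = 0.00255 in female cells) and SIK1 (-1.12, SE 0.38, adjusted p = 0.0429 in female cells). The SIK1 call was lost without any 1 of 10 libraries (adjusted p of 0.0501 to 0.204, the highest without female gel 4), and in male cells SIK1 was called only without male gel 2 (-1.07, adjusted p = 0.0425). The number of rises in female cells was 4 without female gel 2, 5 without female plastic 4 and 4 without both cultures numbered 4.

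**Figure D5:**
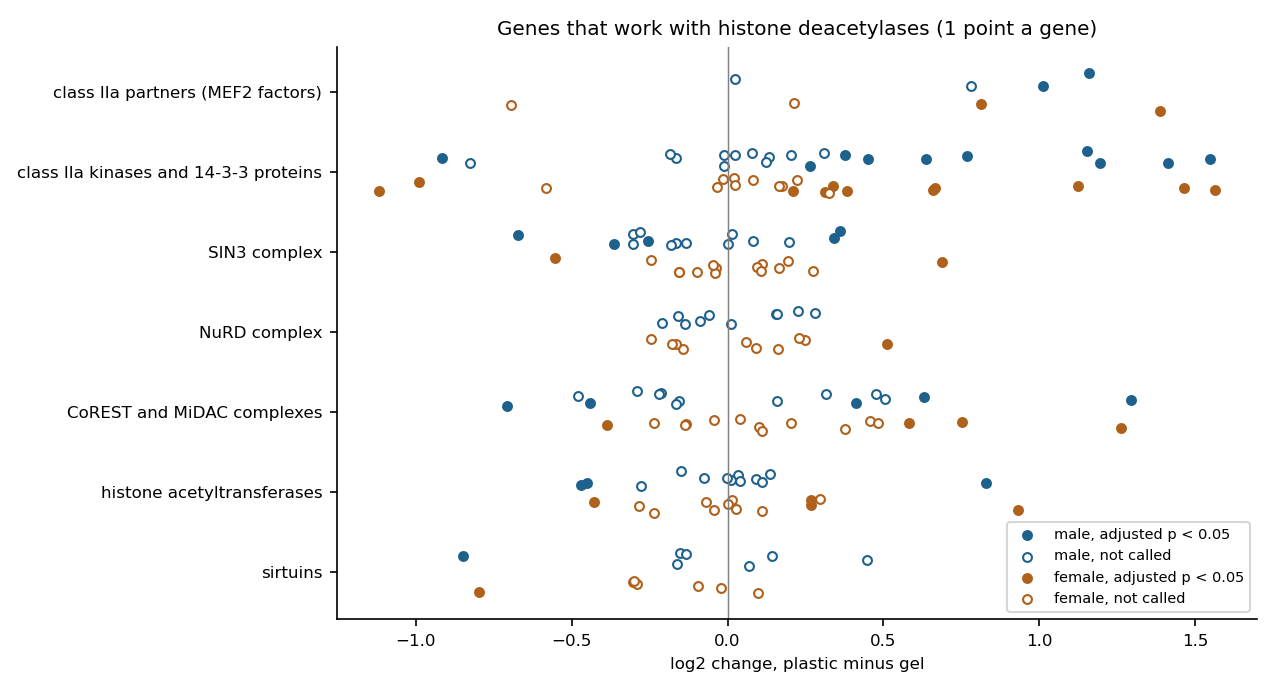
Log2 change between plastic and gel of genes that work with histone deacetylases or oppose them, with a row per list and a point per tested gene; blue, male, and orange, female cells; filled points have an adjusted p under 0.05 (edgeR). In the MEF2 row both sexes have 2 filled points, all to the right of 0, and the row of kinases and 14-3-3 proteins has 9 filled points to the right in each sex.

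NCOR1, a scaffold that binds HDAC3, rose by 0.40 (SE 0.07, adjusted p = 0.000358) in male and by 0.36 (SE 0.07, adjusted p = 0.000746) in female cells. KDM4A, a histone demethylase found with it, fell in female cells (-0.31, SE 0.10, adjusted p = 0.0306) and was at -0.23 in male cells (SE 0.10, adjusted p = 0.104), where it was called lower without male gel 2 (-0.29, SE 0.09, adjusted p = 0.0375). The female KDM4A call was lost without female gel 2, 3 or 4 or female plastic 3 or 4 (adjusted p of 0.0521 to 0.093).

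Genes of 3 complexes that hold HDAC1 and HDAC2 were counted. Of all tested genes, 25.8% were called either way in male and 23.9% in female cells, and no response of a complex is read from its count. Of 15 tested CoREST and MiDAC genes, 3 rose and 2 fell in male cells, and 3 rose and 1 fell in female cells. HMG20B, a CoREST subunit, rose from a mean of 141 to 346 CPM in male (1.29, SE 0.14, adjusted p = 8.42e-06) and from 142 to 341 CPM in female cells (1.26, SE 0.14, adjusted p = 1.11e-05). ELMSAN1, the MiDAC scaffold, rose by 0.63 (SE 0.09) and 0.58 (SE 0.09). ZEB1, a repressor that recruits CoREST, rose by 0.75 in female cells (SE 0.14, adjusted p = 0.000806) and by 0.41 in male cells (SE 0.14, adjusted p = 0.0378). Leaving out male gel 3 or 4, or male plastic 1, 2 or 3, ended the male ZEB1 call (adjusted p of 0.0551 to 0.112). The genes of this list that fell, named after their values were seen, were KDM1A (LSD1, the CoREST demethylase) in both sexes (-0.44, SE 0.10, adjusted p = 0.0055 in male; -0.39, SE 0.10, adjusted p = 0.0129 in female cells, 0.052 without female gel 3) and its partner PHF21A in male cells (-0.71, SE 0.16, adjusted p = 0.00404). PHF21A was at -0.23 in female cells (adjusted p = 0.321) and at -0.40 there with male gel 2 and female plastic 4 left out. Of 15 tested SIN3 genes, 2 rose and 3 fell in male cells, and 1 rose and 1 fell in female cells. SAP30, a SIN3 subunit, fell by 0.67 (SE 0.13, adjusted p = 0.00113) in male and by 0.55 (SE 0.13, adjusted p = 0.00491) in female cells. SAP30L, its paralog, rose in male cells (0.36, SE 0.09, adjusted p = 0.00848) and was at 0.16 in female cells (adjusted p = 0.212). RBBP4, a histone chaperone shared by SIN3 and NuRD, fell by 0.36 in male cells (SE 0.10, adjusted p = 0.0126; 0.0674 in a fit of the 8 male libraries; -0.23 without male gel 2 and female plastic 4) and was at -0.16 in female cells (adjusted p = 0.277). The other calls in the SIN3 list, seen before they were named, were less firm: the scaffold SIN3A in male cells (-0.25, adjusted p = 0.0437), SAP18 in male cells (0.34, adjusted p = 0.0429) and ARID4A in female cells (0.69, adjusted p = 0.0204). They were lost without any 1 of 12, 9 and 2 libraries, at adjusted p up to 0.11, 0.111 and 0.0834. Of 10 NuRD genes, 0 were called in male cells, and 1 rose in female cells, the methyl-DNA reader MBD2 (0.51, SE 0.12, adjusted p = 0.00572). Without male gel 2, MBD2 rose in male cells too (0.38, adjusted p = 0.00838), and without both cultures numbered 4 the female call was lost (0.38, adjusted p = 0.0634).

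Acetyltransferases, the enzymes that oppose deacetylases, had 1 of 13 genes up and 2 down in male cells, and 3 up and 1 down in female cells. For this list and those below, the share of all tested genes called either way was 25.8% in male and 23.9% in female cells. KAT2B (also named PCAF) rose by 0.83 (SE 0.15, adjusted p = 0.000606) in male and by 0.93 (SE 0.15, adjusted p = 0.00024) in female cells, with no overlap between surfaces. KAT2A, its close paralog, fell by 0.45 (SE 0.12, adjusted p = 0.0135) in male and 0.43 (SE 0.12, adjusted p = 0.0184) in female cells. The male KAT2A call was lost without male plastic 3 (adjusted p = 0.0502), and the female call without female gel 2 or female plastic 2 or 4 (0.0511 to 0.0641). EP300, the p300 acetyltransferase, rose in female cells (0.27, SE 0.08, adjusted p = 0.0203), a call lost without female gel 1 or 2 or female plastic 4 (0.0553 to 0.0688), and was at 0.09 in male cells. The remaining calls, named after their values were seen, were KAT6A in female (0.27, adjusted p = 0.0388) and KAT6B in male cells (-0.47, adjusted p = 0.0304), lost without any 1 of 8 and 4 libraries at adjusted p up to 0.128 and 0.0956. Among 7 sirtuins, the NAD-dependent deacetylases of class III, 0 rose and 1 fell in each sex. This was SIRT5, a mitochondrial enzyme (-0.85, SE 0.23, adjusted p = 0.0116 in male; -0.80, SE 0.23, adjusted p = 0.0185 in female cells; 0.052 in female cells without female gel 3 and 0.118 without both cultures numbered 4). Of the acetyl-lysine readers of the BET family, 2 were tested and 0 were called in either sex (median -0.22 and -0.08). Cell cycle genes, given because class I enzymes are tied to proliferation, had 1 of 20 up (PLK1, 0.98, adjusted p = 0.0269) and 0 down in male cells and 0 up and 1 down (MCM7, -0.58, adjusted p = 0.0483) in female cells. The PLK1 and MCM7 calls were lost without any 1 of 4 and 12 libraries, at adjusted p (edgeR) up to 0.0696 and 0.162. Without male gel 2 and female plastic 4, 0 cell cycle genes were called in either sex. With the replicate number as a block the counts of rises and falls were 6 and 1 in male and 3 and 3 in female cells. The share of all genes called in the block fit is not given here, so nothing is read from these counts.

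The genes whose levels ran most like HDAC9 over the 16 libraries were STBD1 and ZC2HC1A (Pearson r = 0.973 each, of log2 CPM), USP53 (0.968), PTPN21 (0.966) and RAB4A (0.965). They rose by 0.70, 1.26, 0.75, 0.80 and 0.38 in male and by 0.78, 1.64, 0.95, 0.92 and 0.46 in female cells, in that order. Of 14529 other tested genes, 220 had an r above 0.9. The libraries share the contrast of surfaces, which adds to r for any gene that differs between them. What else these genes share with HDAC9 was not tested, so this is a description of likeness only.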

How the data were processed

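The authors deposited raw counts per gene for the 16 libraries. Per the labels' protocols, an RNeasy Micro kit served for RNA and a KAPA mRNA HyperPrep kit for libraries. The submitters' processing notes name FastQC 0.11.5, Trimmomatic 0.36, HISAT2 2.1.0, SAMtools 1.3.1, featureCounts and the build Sscrofa11.1. Strand setting and treatment of multi-mapped reads are not given in the sources used here, so reads shared by overlapping genes or close paralogs are uncertain. Of 29576 rows, 24 bore a number in place of a name and were dropped (0.169% of counts). RefSeq symbols matched all of the remaining 29552 and gave coordinates.

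Group means of all 16 libraries were fitted with edgeR 4.0.16 in R 4.3.3 (TMM, filterByExpr, quasi-likelihood F test, 12 residual degrees of freedom, Benjamini-Hochberg over 14530 genes). Changes are log2 with their SE. For correlations and deviations, CPM was put on a log2 scale after adding a prior count of 2. The fit was run on simulated data for the surface changes only. The simulated libraries were independent, with no pairs and no deviant library, so that run does not cover these features of the data. Replicates of a group were no copies of each other (chi-square per degree of freedom of 9.93 to 81.9 over their pairs). Whether a replicate number marks 1 animal is not in the labels. The check for pairing rests on the data: gel and plastic libraries sharing sex and number had correlated deviations (r of 0.126 to 0.489 in the 8 pairs), and 16 of 16 libraries were closest to their own number. They were treated as pairs in the alternative with a replicate block.

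All 9 members were named whatever their result, and of other lists up to 3 called genes with the smallest adjusted p, besides MEF2A, MEF2C, MEF2D, NCOR1 and ACTA2. The result of 1 gene so chosen, and the counts of its list, are not reported here. Marker genes of other cell types were given by counts. The members and lists were chosen with earlier results of these data known. Alternatives were RLE factors, DESeq2 1.42.0, limma-voom (limma 3.58.1), no filter, a CPM minimum of 1 in 4 libraries, only the 8 libraries compared, the replicate block and leaving out each library. Fits that left out male gel 2 with female plastic 4, or both cultures numbered 4, were added after seeing the data. Figures were drawn with matplotlib 3.10.9. Protein and promoter sequences were not used here.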

Additional observations from a re-analysis of the deposited data

Results flagged for a closer look

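In 6 of the 36 sets of 4 libraries (9 genes in 4 groups), 1 library lay far from the other 3 relative to the range of the group. Chance gives this in about 1 in 20 sets that are normal and independent. These sets share libraries, and the deviations of several members ran together, so no excess is read from the count. High values were HDAC2 in male gel 2 (144 CPM) and HDAC9 in female plastic 4 (116 CPM). Low values were HDAC3 in male plastic 4 (33.4 CPM), HDAC5 in female gel 3 (74.0 CPM), HDAC5 in female plastic 4 (71.0 CPM) and HDAC7 in male plastic 1 (70.8 CPM). For HDAC5 in female gel the range was narrow, 74.0 to 78.4 CPM. Of the 6 values, 3 came from male gel 2 or female plastic 4.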

How the results depend on the processing

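HDAC9 was called higher in both sexes and HDAC2 lower in male cells under every alternative run. The number of members that fell was 1 in male and 0 in female cells; it ranged from 1 to 2 and from 0 to 1 when 1 library was left out, was 1 in female cells with only the 8 libraries compared, and was 2 in each sex without male gel 2 and female plastic 4, a set chosen in part from the levels of the members. The replicate block gave HDAC9 changes of 2.05 and 2.36 and HDAC2 changes of -0.55 and -0.24 in male and female cells and altered no call of a member. Reversals were seen only in values not called by the main test. Leaving out 1 library, the surface change ran from -0.17 to 0.13 for HDAC11 in male and from -0.02 to 0.04 for HDAC5 in female cells. The sex difference on gel ran from -0.03 to 0.08 for HDAC1, -0.26 to 0.01 for HDAC2, -0.11 to 0.06 for HDAC3 and -0.23 to 0.34 for HDAC9, and on plastic from -0.05 to 0.05 for HDAC1 and -0.17 to 0.00 for HDAC4. The difference of changes of HDAC1 ran from -0.08 to 0.03. The TWIST1 change ran from -0.05 to 0.14 in male and from -0.01 to 0.14 in female cells and was -0.04 in female cells without the cultures numbered 4. The female SNX13 change ran from -0.13 to 0.04 and was 0.00 with RLE factors and with DESeq2. Male ARID4A ran from -0.03 to 0.39 and male KAT6A from -0.04 to 0.07, and male ARID4A was -0.02 without the cultures numbered 4. Female HDAC5 on plastic against gel was 0.03 with RLE factors and with DESeq2 and 0.04 in both added fits. HDAC3 between the sexes on gel was 0.00 by limma-voom and 0.01 with no filter and in the fit of 8 libraries. Without male gel 2 and female plastic 4, male HDAC11 was -0.17, HDAC2 on gel 0.01, HDAC1 and HDAC4 on plastic -0.05 and 0.00, and the differences of changes of HDAC3 and HDAC9 0.01 and -0.18. Without the cultures numbered 4, male HDAC1 and HDAC11 were 0.00 and -0.02, and HDAC1, HDAC4 and HDAC5 between the sexes on plastic -0.09, 0.03 and 0.03. The cause of these reversals was not tested. Over all tested genes, those higher in female cells numbered 1 on gel (0 to 4 over the alternatives) and 4 on plastic (2 to 6). With n = 4, the 95% intervals of HDAC10 and HDAC11 were wide, for male HDAC10 from -0.28 to 1.02.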
